A study of Caenorhabditis elegans with 9 samples.

Results

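The regions described here are the binding sites of PES-1 that lie close to a chromosome end in the nematode Caenorhabditis elegans. Of the 7213 peaks in the authors' combined list, 446 had their midpoint within 500 kb of either end of their chromosome, and the other 6767 made up the interior. They were selected by position alone. The left end was counted from position 1. The right end was counted from the last base that a peak of any of the 3 deposited lists reached, so distances from a right end are distances from that base and not from the telomere. In the lists of the biological replicates, 225 of 3488 peaks of replicate 1 and 259 of 4185 peaks of replicate 2 met the same rule.

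PES-1 is a forkhead protein, a class of transcription factor that reads DNA through a winged helix domain, and it is known from its expression in lineages of the early embryo, where it acts in part redundantly with the related factor FKH-2. Worm chromosomes have no single centromere, and each ends in telomere repeats. On the autosomes the outer arms are known to be richer in repeats and poorer in conserved genes than the centres, and single ends carry features of their own. The ribosomal RNA gene array lies at the right end of chromosome I, and the pairing centre of the X chromosome, which the zinc finger protein HIM-8 binds in meiosis, lies near its left end.

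Binding was measured by chromatin immunoprecipitation and sequencing (ChIP-seq). Every library came from hermaphrodites of strain OP87 at the L4 larval stage, which were unc-119(ed3) III mutants with the bombarded transgene wgIs87, made of an unc-119(+) rescue gene and pes-1 fused to TY1, EGFP and 3xFLAG tags. They were grown at 20 °C and fixed with 2% formaldehyde, and the tagged protein was pulled down with goat antibodies to GFP. Replicate 1 had 2 ChIP and 4 input libraries and replicate 2 had 3 ChIP libraries, input being chromatin kept before the pull-down. The strain is a single transgenic line, the pull-down reads the tagged copy and not the native protein, and whole worms were used, so the cells in which a site was bound cannot be told apart. No library of an untagged strain was analysed here. Each replicate is represented by 1 peak list with no read counts, so depth is unknown and no spread between libraries can be given. Positions are on WormBase WS190. Gene annotation and sequence of that build were not used here, and regions are named by position.

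Taken as a whole, the ends carried about as many peaks as the interior. The outer 500 kb of the 12 ends is 5.99% of the length and held 6.18% of combined peaks, with an exact binomial interval of 5.64 to 6.76% that covers counting error only. That is 74.3 peaks per Mb at the ends and 71.9 in the interior, a ratio of 1.03 (counting interval 0.94 to 1.14). The ratio was 1.08 in replicate 1, with 37.5 peaks per Mb at the ends and 34.7 in the interior, and 1.04 in replicate 2, with 43.2 at the ends and 41.7 in the interior. Peaks covered 3.00% of the end sequence and 3.04% of the interior in the combined list. Each chromosome gives the same length to the ends, whereas long chromosomes such as the sparse V weigh more in the interior. The pooled ratio was not adjusted for this. Because peaks cluster, a counting interval understates the uncertainty, and no difference in density between ends and interior is shown.

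End peaks also resembled interior peaks in size and strength. Their median width was 333.5 bp, with the central 50% of peaks between 200 and 492 bp, against 336 bp and 219 to 509 bp in the interior. The median q, the authors' error rate for a peak, was 6.68e-05 at the ends and 7.14e-05 in the interior. Peaks with q below 1e-10 made up 17.9% of end peaks (80 of 446) and 18.4% of interior peaks (1246 of 6767), and peaks of at least 1 kb 5.38% (24 peaks) and 5.23% (354 peaks). None of the 10 peaks with the smallest q of the combined list lay at an end. Of the best 50 there were 4 (8%), of the best 100 there were 6 (6%), and of the best 500 there were 29 (5.8%), which stays near the 6.18% of all peaks that lay there.

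The 12 ends were far from equal. In the combined list the right end of chromosome I held the most peaks, 55 (exact Poisson interval 41.4 to 71.6), and the left ends of I and III held 53 each. The right end of II followed with 49, the right end of III with 40, the right end of V with 37 and the left end of II with 33. Below them came the left end of IV with 29, the left end of V with 28 and the right end of IV with 25. Both ends of X were at the bottom, with 24 on the right and 20 on the left (interval 12.2 to 30.9 for the left). Neighbours in this order have overlapping intervals. Those of the 4 fullest ends, none of which starts below 36.3, do not reach the intervals of either X end, none of which passes 35.7.

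The replicate lists kept the left end of X at the bottom and ordered the other ends differently. It had the fewest peaks in both, 7 in replicate 1 and 16 in replicate 2. In replicate 2 this was close to a tie, with 17 each on the right end of IV and the left end of V. The fullest end of replicate 1 was the right end of III with 29 peaks, and that of replicate 2 the left end of III with 30. Second in each came the right end of II, with 26 peaks in replicate 1 and 29 in replicate 2. The right end of X was second from the bottom in replicate 1, with 10 peaks, and shared rank 8 in replicate 2, with 18. The ends of chromosome I, at the top of the combined list, ranked 4 (left, 23 peaks) and 3 (right, 25) in replicate 1, and 8 (left, 18) and 6 (right, 21) in replicate 2.

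**Figure D1:**
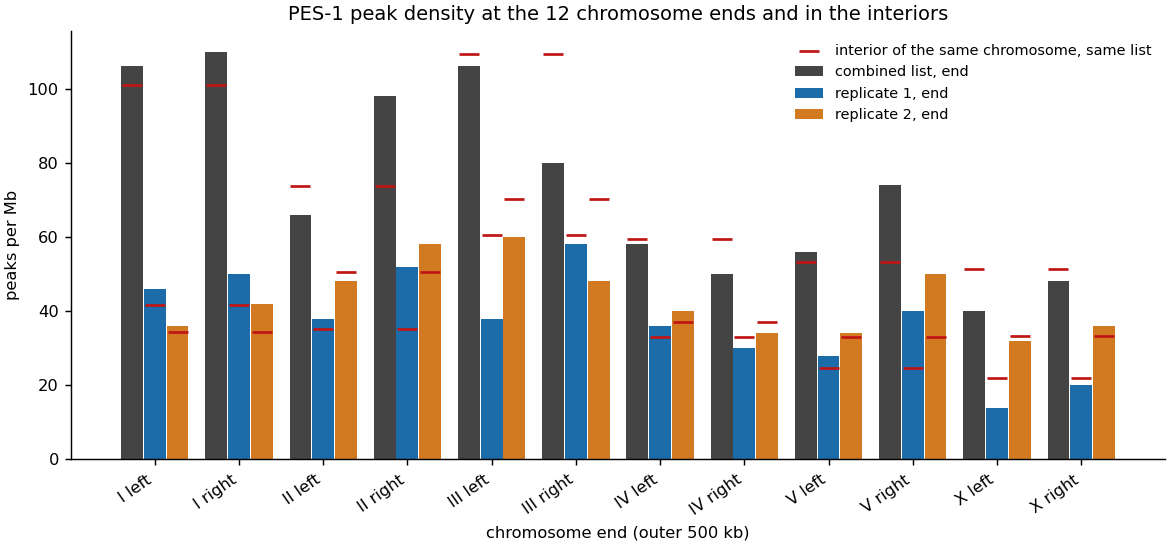
Peaks per Mb in the outer 500 kb of each chromosome end (bars) for the combined list and each replicate list, with the density in the interior of the same chromosome and list as a red line. The right end of V stands above its interior in all 3 lists, and both ends of III stand below theirs.

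Chromosomes differed in density themselves. In the combined list the interiors of III and I were the densest, at 109 and 101 peaks per Mb, and those of V and X the sparsest, at 53.3 and 51.3. In replicate 2 the interior of I, at 34.4 peaks per Mb, was close to those of V (33.1) and X (33.4) and below II (50.5). Set against the interior of its own chromosome, an end was denser in all 3 lists at 5 of 12 ends (both of I, the right of II and both of V), sparser in all 3 at 4 (both of III, the right of IV and the left of X) and mixed at 3. Of all ends the right one of V had the largest excess. It held 74.0 peaks per Mb against 53.3 in the interior of V in the combined list, a ratio of 1.39, and the ratios were 1.61 in replicate 1 and 1.51 in replicate 2. Next in the combined list and in replicate 1 came the right end of II, with ratios of 1.33 and 1.48. In replicate 2 it had 1.15, below the right end of I with 1.22. The largest deficit of the combined list was at the right end of III, with 80.0 peaks per Mb against 109 in the interior of III, a ratio of 0.73, but its ratio was 0.96 in replicate 1 and 0.68 in replicate 2. On the left, III ran the other way between replicates, at 0.63 in replicate 1 and 0.86 in replicate 2. With 7 to 30 replicate peaks an end, such ratios rest on few peaks and were not tested.

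With both ends of a chromosome added, V had 1.22 times the density of its interior by combined peaks, 1.37 times by replicate 1 and 1.27 times by replicate 2. Chromosome III was below 1 in every list, with ratios of 0.85 combined, 0.79 in replicate 1 and 0.77 in replicate 2. On X, the sparsest at its ends, the ratio was 0.86 combined, 0.78 in replicate 1 and 1.02 in replicate 2. The ends of I and II together were above 1 in every list, at 1.05 to 1.28, and IV had 0.91 combined and 1.00 in each replicate. Left and right ends as groups were close, with 216 left and 230 right combined peaks, 100 and 125 in replicate 1, and 125 and 134 in replicate 2.

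Within the outer 500 kb the peaks were not evenly spread, and the zone from 200 to 300 kb was the emptiest of the 5 zones of 100 kb in every list. In the combined list the outermost 100 kb held 113 peaks, the next zones 81, 60 and 108, and the zone from 400 to 500 kb 84. Replicate 1 gave 62, 36, 31, 50 and 46, and replicate 2 gave 64, 51, 32, 63 and 49. In peaks per Mb, the combined density was 94.2 in the outermost zone and 50.0 from 200 to 300 kb, beside 71.9 in the interior. The outermost zone was filled unevenly. Over the 9 ends other than the left of I, the right of II and the left of III, the combined density was 58.9 in the outermost zone, then 74.4, 43.3 and 83.3, and 63.3 from 400 to 500 kb. The outermost zone was then below the 71.9 of all interiors together. A fall there was built in, since the ends left out were chosen as the fullest in that zone. The 71.9 also still includes the dense interiors of I and III. The zone from 200 to 300 kb was still the lowest. The zones were set after the lists had been seen, the low zone was picked among 5, and no test was made.

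The 3 ends were those with the most combined peaks in the outermost 100 kb. At the left end of III lay 24 of the 113 combined peaks there, and at the left end of I and the right end of II 18 each, together 60, against 53 at the other 9 ends. In the replicate lists the same 3 ends held 30 of 62 peaks of replicate 1 and 28 of 64 of replicate 2. At the other extreme the right end of I held 2 combined peaks in its outermost 100 kb, the right end of IV 3 and the left end of X 4. More peaks lay in the outermost 100 kb than from 200 to 300 kb at 9 of 12 ends in the combined list and at 8 in each replicate. Beyond the window, from 500 kb to 1 Mb, the combined list held 407 peaks (67.8 per Mb), replicate 1 held 180 (30.0) and replicate 2 held 225 (37.5). From 1 to 1.5 Mb there were 591 combined peaks, with 284 in replicate 1 and 348 in replicate 2.

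**Figure D2:**
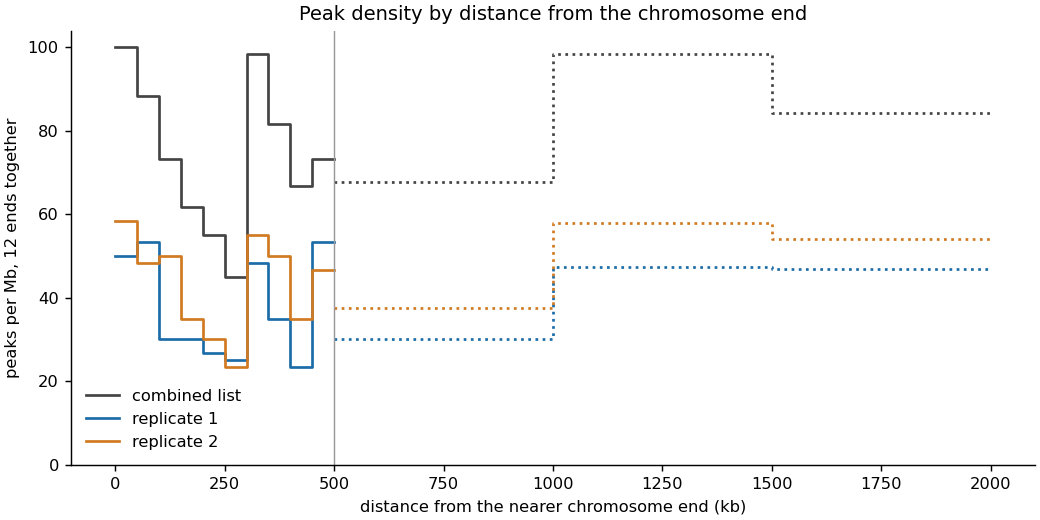
Peaks per Mb of the 12 ends together against distance from the nearer chromosome end, in 50 kb steps inside the outer 500 kb (solid) and 500 kb steps beyond it (dotted). The combined list and replicate 2 have their emptiest step between 250 and 300 kb, at 45.0 and 23.3 per Mb. Replicate 1 has its emptiest step between 400 and 450 kb, at 23.3 per Mb, and has 25.0 between 250 and 300 kb.

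Peaks reached close to the last listed base at several ends. By the construction of the rule the right ends begin with a peak of at least 1 list. On the left, the outermost combined peak started at position 3636 on I, 7318 on V, 11412 on X, 12675 on III, 18836 on II and 51196 on IV. The one on I, from 3636 to 4099, was found in both replicates, at q values of 6.56e-21 combined, 9.29e-06 in replicate 1 and 1.73e-09 in replicate 2. The outermost peak at the right end of III, from 13771098 to 13771439, was also found in both, at 4.93e-17 combined, 2.21e-13 in replicate 1 and 7.58e-05 in replicate 2. Of the other 10 outermost peaks, none was in both lists. Those at the left of V and X and the right of II and V were in replicate 2 only, those at the left of II, III and IV and the right of I and IV in replicate 1 only, and that at the right of X in neither. For scale, 31.4% of all end peaks and 32.7% of all combined peaks were in both. Most of these 10 were weak, with a combined q above the end median of 6.68e-05, and they are few.

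A 1256 bp peak on the left end of V, from 8088 to 9343, was the most significant of that end. Its q was 2.08e-29 in the combined list and 2.91e-14 in replicate 2, where it ranked 161. Replicate 1 called 2 peaks there, the better with q = 3.38e-08 at rank 842. At the 11 other ends the most significant peak of the combined list lay deeper, more than 200 kb in. This does not carry over to the single lists, in which the left end of V had its smallest q elsewhere, 349283 bp in for replicate 1 and 104792 bp in for replicate 2, and in which the right end of I had its smallest q 33541 bp in for replicate 1 and 1815 bp in for replicate 2.

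At every one of the 12 ends the peak with the smallest combined q was found in both replicate lists. These 12 were picked for strength. With all combined peaks divided by q into 4 classes, all 12 fall in the strongest. In that class 88.8% of end peaks and 90.7% of interior peaks were in both. The strongest of the 12 was on the right end of V, from 20418270 to 20420571, 2302 bp wide with its midpoint 468825 bp from the end. Its combined q was 1.03e-59, rank 21 of 7213. The q was 2.04e-35 in replicate 1, at rank 30, and 1.89e-13 in replicate 2, at rank 178, as the better of 2 peaks. The peak on the right end of IV, from 17249676 to 17250113, was far narrower, at 438 bp, and stood high in both lists. Its combined q was 8.30e-58, with 1.73e-41 in replicate 1 (rank 16) and 3.61e-28 in replicate 2 (rank 23). It stood in a sparse stretch, and was the only combined peak of that end between 200 and 250 kb.

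Among the 10 most significant end peaks, only that on the right end of II from 15025003 to 15026064 had its smaller q in replicate 2. Its q was 9.08e-55 for the combined peak, 2.82e-24 in replicate 1 (rank 90, the better of 2 peaks) and 1.04e-33 in replicate 2 (rank 16). By rank within each list, others of the 10 also stood higher in replicate 2. On the left end of I a pair of neighbouring peaks ranked 4 and 5 among end peaks. The peak from 316006 to 316435 had a q of 5.71e-54 combined, 7.32e-28 in replicate 1 and 9.76e-25 in replicate 2. The other of the pair, from 314973 to 315628, had 4.31e-41 combined, 9.76e-24 in replicate 1 and 7.11e-12 in replicate 2. The left end of II had its best peak from 254962 to 255745, with combined q of 2.07e-40 and rank 81 in each replicate.

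The remaining 4 of the 10 most significant end peaks lay on I and III. On III they were the peaks from 13462817 to 13465289 (combined q = 5.57e-37) and from 13643242 to 13643859 (2.87e-36) at the right end and from 348523 to 350458 (3.11e-36) at the left. On I it was the peak from 382331 to 383001 (1.85e-36). The left peak of III had the most uneven support of the 10 by rank, 70 in replicate 1 with q = 2.97e-27 and 636 in replicate 2 with q = 1.58e-07. The best peak of the left end of IV, from 385111 to 385800, reached 3.16e-31 combined, and that of the right end of I, from 14758672 to 14759752, 5.31e-25. The X ends had the weakest best peaks. On the left, the peak from 409937 to 410631 reached 1.01e-16, and on the right the peak from 17479246 to 17480935 reached 1.20e-13, rank 920 of the combined list.

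**Figure D3:**
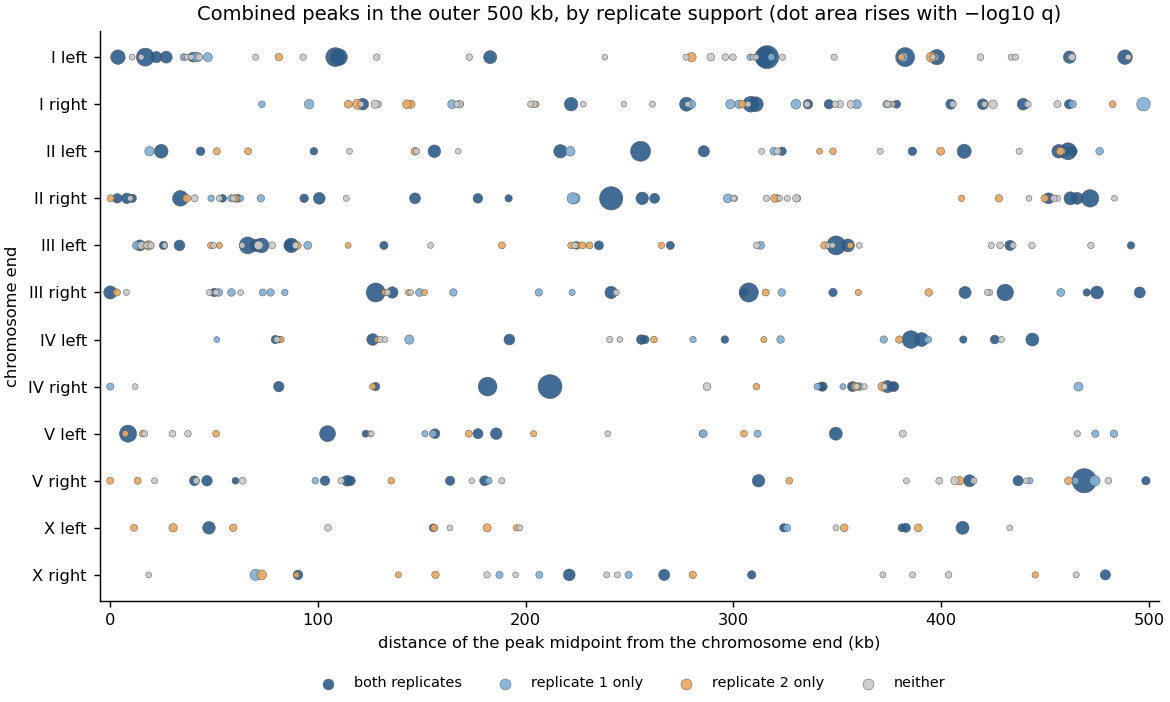
All 446 combined end peaks by the distance of their midpoint from the chromosome end, with 1 row for each end, colour for the replicate lists that held an overlapping peak, and dot area rising with −log10 q. Large dots are mostly in both replicates, and the rows of X hold the fewest dots and none of the largest.

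Peaks gathered in groups, and the replicate support of each group rests on few peaks. For scale, 31.4% of all end peaks and 32.7% of all combined peaks were in both replicates. Joining combined peaks less than 5 kb apart, the fullest group was on the left end of I, 9 peaks from 35351 to 47283, of which 1 was in both replicates and the best combined q was 3.52e-09. On the left end of III, 7 peaks from 63374 to 78186 included 3 in both replicates, led by a 2458 bp peak from 65108 to 67565 whose q was 1.13e-28 combined, 4.34e-21 in replicate 1 and 5.12e-06 in replicate 2. On the right end of II there were 8 peaks from 15203380 to 15218124 with 2 in both replicates, and 7 peaks from 14935762 to 14950818 with 0 in both. The last of these groups lay inside a stretch of 154 kb, from 14815201 to 14969244, in which replicate 1 had no peak. The other groups of 7 peaks, on the left end of III and the right end of IV, had 1 or 2 in both. Gaps of less than 1 kb made up 17.6% of the gaps between neighbouring combined peaks at the ends (78 of 442) and 16.8% in the interior (1134 of 6765).

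Some stretches of the ends held no peak in any list. On the left end of X, the combined list was empty from 197315 to 324030, replicate 1 from 155687 to 324049 and replicate 2 from 195733 to 324049. On the right end of V, the combined list was empty from 20576298 to 20699454, replicate 1 from 20576285 to 20705645 and replicate 2 from 20576296 to 20708409. These 2 stretches, 127 and 123 kb in the combined list, were the only empty ones of at least 100 kb at the ends in that list. The interior had 67, or 0.71 per Mb, against 0.33 per Mb at the ends, and the longest spanned 310 kb. A stretch with no listed peak is not shown to be unbound, since every listed q is below 0.01 and weaker sites are not in the lists.

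Replicate support at the ends was close to that of the whole list. Of the 446 combined end peaks, 140 (31.4%, exact binomial interval 27.1 to 35.9%) overlapped a peak of each replicate by at least 1 bp, against 2218 of 6767 (32.8%) in the interior and 32.7% of all combined peaks. A further 74 (16.6%) were in replicate 1 only, against 14.5% of interior peaks and 14.6% of all. Replicate 2 only held 84 (18.8%), against 19.0% of interior peaks and 19.0% of all. Neither list held 148 (33.2%, interval 28.8 to 37.8%), against 33.7% of interior peaks and 33.7% of all. The combined list may share reads with the replicate lists, so support by a replicate is not independent of being listed.

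The replicate lists, whose ChIP libraries were separate, were also compared with each other directly. Whether they shared a control is not given in the sources. Of the 225 end peaks of replicate 1, 142 overlapped a peak of replicate 2, or 63.1% (interval 56.4 to 69.4%), against 2218 of 3263 (68.0%) in the interior and 67.7% of the whole list. Of the 259 end peaks of replicate 2, 145 overlapped a peak of replicate 1, or 56.0% (interval 49.7 to 62.1%), against 2251 of 3926 (57.3%) in the interior and 57.3% of the whole list. Both shares were lower at the ends than in the interior, and in each case the interior value lay inside the counting interval of the ends. For replicate 2 the direction turned when each list was restricted to the 50% of its peaks that had the smaller q, with 71.4% at the ends and 59.1% in the interior.

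**Figure D4:**
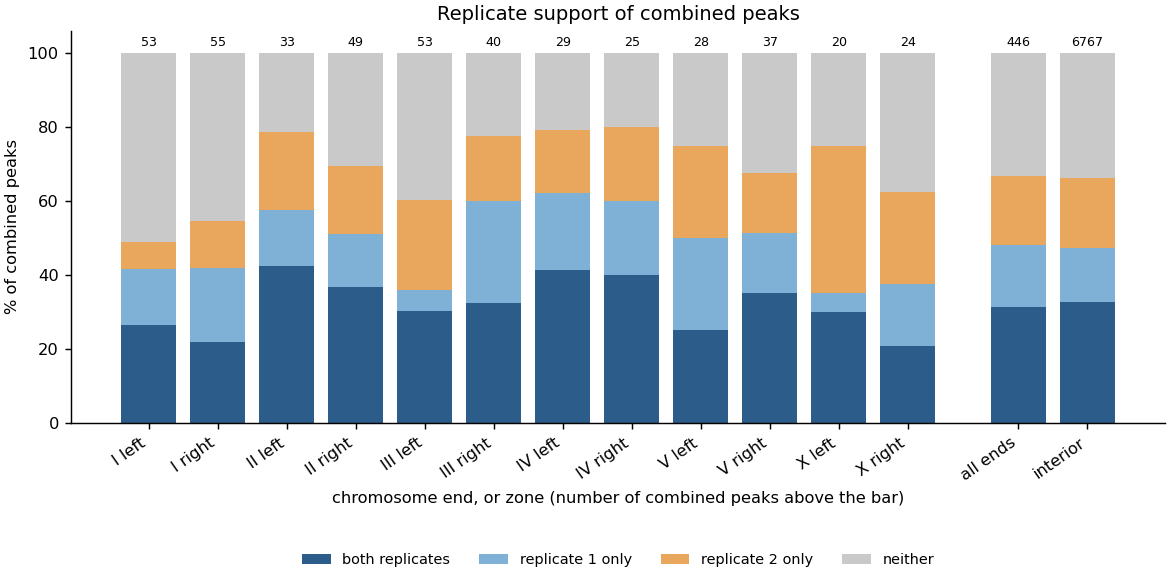
Share of combined peaks that overlapped a peak of both replicate lists, of 1 list only or of neither, for each chromosome end, for all ends together and for the interior, with the number of combined peaks above each bar. All ends together and the interior have almost the same bars, and the ends of I have the largest share in neither list.

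Support varied between the ends. The share in both replicates was highest on the left end of II, at 14 of 33 (42.4%), and on the ends of IV, at 12 of 29 (41.4%) on the left and 10 of 25 (40.0%) on the right. It was lowest on the right end of X, at 5 of 24 (20.8%), on the right end of I, at 12 of 55 (21.8%), and on the left end of V, at 7 of 28 (25.0%). The interval of each end is wide, for example 25.5 to 60.8% on the left end of II and 7.13 to 42.2% on the right end of X, and these overlap. Compared with the interior of the same chromosome, the share was higher at 6 ends and lower at 6, and at all 12 ends the interior value lay inside the counting interval of the end.

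The 2 ends of chromosome I had the most peaks in neither replicate, 27 of 53 (50.9%) on the left and 25 of 55 (45.5%) on the right. This was a feature of the whole chromosome in the combined list, since 50.7% of the peaks in the interior of I were also in neither. With chromosome I left out, 28.4% of end peaks and 29.2% of interior peaks were in neither list, and 33.7% and 35.1% were in both. Next was the left end of III with 21 of 53 (39.6%, interval 26.5 to 54.0%), against 26.6% in the interior of III. There, 13 peaks were in replicate 2 only and 3 in replicate 1 only, and at the right end of III it was 7 and 11, beside 276 and 212 in the interior of III. The left end of X had 8 of 20 peaks in replicate 2 only and 1 in replicate 1 only, and the interior of X had more in replicate 2 only as well, 206 against 93.

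Support rose with the strength of a peak, at the ends as in the interior. With the combined list divided by q into 4 classes of nearly equal size, the 107 end peaks in the strongest class were in both replicates in 88.8% of cases (interval 81.2 to 94.1%), against 90.7% in the interior. In the next class the shares were 34.7% at the ends and 37.9% in the interior, then 3.64% and 2.42%, and in the weakest class 0 of 111 end peaks (interval up to 3.27%) and 0.059% in the interior. By median, end peaks in both replicates were 491.5 bp wide with a q of 1.28e-11, against 467 bp and 2.42e-11 in the interior. Those in neither had 205.5 bp and 0.00229 at the ends, against 219 bp and 0.00237 in the interior. Of the 24 end peaks of at least 1 kb, 18 (75%) were in both replicates, against 73.7% of 354 in the interior.

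A few strong end peaks were missing from a replicate list. Of the 107 in the strongest class, 9 were in replicate 1 only, 4 of them on I, and 3 in replicate 2 only, 2 of them on I. The other 95 were in both, 23 of them on I. They were 88.8% of the class at the ends, near the 90.7% of the interior. The most significant of those in 1 list only was on the right end of I, from 14569968 to 14570632. Its q was 9.17e-18 in the combined list and 4.15e-10 in replicate 1. The next, on the right end of II from 15043788 to 15044190, reached 7.50e-13, and one on the right end of X from 17630706 to 17631300 reached 5.29e-12, both in replicate 1 only.

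Where both replicates called an end peak, their q values were moderately correlated. Over 140 mutual best-overlapping pairs of end peaks, −log10 q had a Spearman rho of 0.68 and a Pearson r of 0.72 between the lists, and r was 0.66 without the 2 pairs farthest from the median of replicate 1. In the interior, over 2208 pairs, rho was 0.62 and r was 0.80. All pairs come from the same 2 lists, so these correlations across peaks are given as a description. Replicate 1 had the higher −log10 q in 100 of 140 end pairs (71.4%), with a median difference of 0.83, against 64.4% and 0.80 in the interior. The difference was largest on the ends of I, with medians of 3.74 on the left (14 pairs) and 2.75 on the right (12 pairs). The pairs on the left of I also had the highest median −log10 q of replicate 1 among the ends, 10.1. No such median was computed for the interior of I alone. On the right end of IV all 10 pairs were higher in replicate 1. On the left end of X it was 3 of 6, with a median difference of −0.52.

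**Figure D5:**
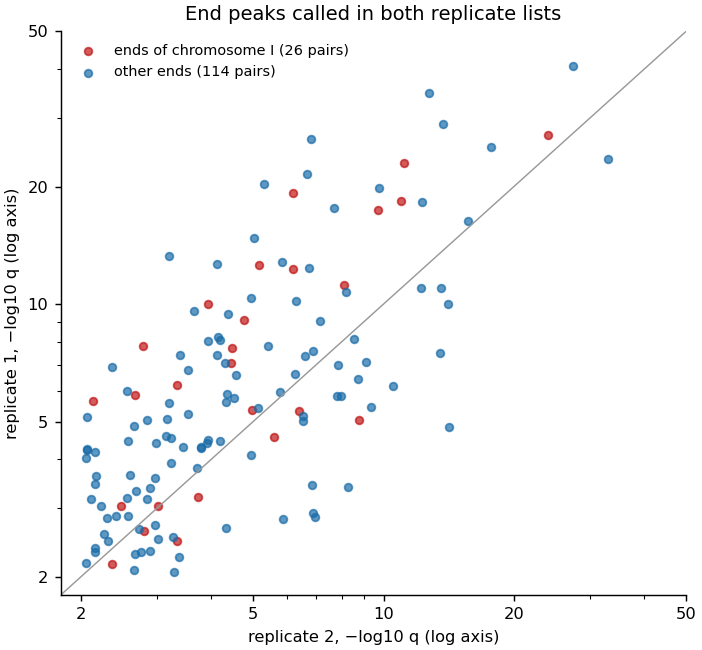
The −log10 q in replicate 1 against that in replicate 2 for the 140 pairs of end peaks called in both lists, on log axes, with the line of equality. More points lie above the line than below it, and those of the chromosome I ends are in red.

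The lists parted at the right end of chromosome I. Its last base was set by a 3631 bp peak of replicate 2 from 15064011 to 15067641, with q = 3.11e-83, the second smallest of that list and the most significant end peak of any list. Replicate 1 and the combined list had no overlapping peak, and the combined list ended at 14994651, its outermost midpoint lying 73118 bp from that base. Replicate 1 had 2 end peaks past that point, from 15034001 to 15034199 with q = 3.07e-14 and from 15013946 to 15014082 with q = 3.30e-08, neither with a counterpart in another list. Apart from these 3, the end peaks absent from the combined list were weak. In all, 8 of 225 end peaks of replicate 1 were absent from it (3.56%, interval 1.55 to 6.89%), against 1.29% in the interior and 1.43% of the whole list, and without the right end of I the share was 6 of 200 (3%). For replicate 2 it was 26 of 259 (10.04%, interval 6.66 to 14.4%), against 8.76% in the interior and 8.84% of the whole list. The interior share lay below the counting interval of the ends with all ends of replicate 1 counted, and inside it without the right end of I and in replicate 2. After the 3 peaks of chromosome I, the next in order of q had 0.00131 in replicate 1 (right end of V, 20410193 to 20411185) and 0.00142 in replicate 2 (right end of I, 14861639 to 14861646). Of the 8 absent peaks of replicate 1, 3 were on the right end of III and 2 on the right end of I. Of the 26 of replicate 2, 6 were on the right end of X.

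Peaks just inside and just outside the 500 kb line show where the rule divides the list. The nearest inside were on the right end of V, from 20389593 to 20389863 with its midpoint at 498517 bp (combined q = 1.50e-06), and on the right end of I, from 14569968 to 14570632 at 497341 bp. The nearest outside were on the right of III, from 13270687 to 13271230 at 500492 bp (q = 2.65e-05), and on the left of III, from 502592 to 502974 at 502782 bp (q = 3.46e-11).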

How the data were processed

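The authors deposited 3 lists of PES-1 peaks, for replicate 1, replicate 2 and both combined. PeakSeq is the caller, per the method column as deposited, and WS190 of WormBase is the build, per the file headers. The q-value of every peak is the authors', as deposited. How the combined list was made, and the caller's version, aligner, threshold and controls, are not given in the sources used. Lists were matched to replicates through the sample titles, whose shared start is the list name. The labels call the replicates biological but do not say how many cultures they came from, and the libraries of a replicate have no separate lists.

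Python 3.11.15 with pandas 2.3.3 read the lists. A peak was placed by its midpoint, in whole bases, within 500000 bp of position 1 or of the last peak end over all lists. Lists were matched at an overlap of at least 1 bp. Where a combined peak overlapped several replicate peaks, the smallest q was taken. Density used the 6.00 Mb of the ends and the 94.2 Mb of interior. Exact binomial (Clopper-Pearson) and Poisson intervals are at 95%, from scipy 1.17.1, and cover counting error only. No test between ends and interior was made. Figures used matplotlib 3.10.9, and the routines were checked on simulated lists.

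The members, zones and comparisons were chosen with earlier results of these data known. Named regions were, for each end, the peak with the smallest q, the outermost, the widest and those on either side of the 500 kb line, and in all the 10 end peaks with the smallest q and the 5 of each replicate absent from the combined list. Of these, only the ones that a result turns on are printed. Groups, empty stretches and peaks of the strongest class by q missing from a replicate list were picked after their values were seen.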

Additional observations from a re-analysis of the deposited data

How the results depend on the processing

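Density, support, width and strength of the end peaks were recomputed under 72 alternatives in all, and 54 stayed within the counting interval of the reported value. The ratio of end to interior density stayed there under all 12 of its alternatives, from 0.99 with ends of 1 Mb to 1.10 against the zone from 500 kb to 1 Mb, so it fell on either side of 1. The values beyond the interval were these, and the cause of those shifts was not tested unless the alternative builds it in. With ends of 250 kb the median width was 357 bp (335 bp in the interior). Keeping only the 50% of peaks per list that had the smaller q, the share in both replicates was 36.7% (34.0% in the interior), replicate 1 end peaks found in replicate 2 were 70.6% (71.0%), replicate 2 end peaks found in replicate 1 were 71.4% (59.1%), which turned their difference from the interior round, and median width and −log10 q rose, by construction for q, to 423.5 bp and 7.63 (435 bp and 7.95). Without chromosome I the share in neither replicate was 28.4% (29.2%). At 50% reciprocal overlap, which is stricter by construction, the 4 shares were 26.5% in both (26.97%), 38.1% in neither (38.6%), 54.2% of replicate 1 (58.5%) and 47.1% of replicate 2 (48.6%). With replicate 1 or replicate 2 left out, so that support meant being in the remaining list, 48.0 to 50.2% of end peaks were supported and 49.8 to 52.0% were not, by construction. The single replicate lists had median widths of 284 to 383 bp and median −log10 q of 3.02 to 4.24. No paired analysis was possible because each replicate is 1 list and no test was made. Read depth per list is unknown, which limits what a missing peak means.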

Other observations

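Very narrow regions were listed at the ends at about the rate of the interior. Of the 446 combined end peaks, 27 (6.05%) were shorter than 50 bp, against 366 of 6767 (5.41%) in the interior. Of these, 21 of 27 (77.8%) at the ends and 302 of 366 (82.5%) in the interior were in neither replicate, and 0 in both at the ends as in the interior. The narrowest spanned 1 bp, at position 20423674 near the right end of V, with a combined q of 0.000168, and overlapped a peak of replicate 1 only. These peaks were picked after their values were seen. Without them the share of end peaks found in both replicates was 33.4%, against 34.3% in the interior.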
